A study of Mus musculus with 10 samples.

Results

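Genes known from arterial endothelium were followed through single-cell RNA sequencing (scRNA-seq) of endothelial cells (ECs) from mouse long bone: the connexin genes Gja4, Gja5 and Gja1, and Bmx, Gkn3, Stmn2 and Egfl8. These 7 of the 22828 genes kept in the tables were chosen with their levels in these same cells known, so that their arterial pattern is given as a description, without a test. In arterial ECs of adult mice Gja4 was at 1187 counts per 1000000 (CPM), and it was higher in juvenile mice and after parathyroid hormone (PTH) treatment, lower in aged mice. Gkn3 was low in juvenile arterial ECs, Gja5 was higher after alendronate treatment, and Gja1 was the one member that was not highest in arterial ECs.

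All mice were C57BL/6 and carried the Cdh5-mTnG reporter, which labels ECs with membrane tdTomato and nuclear GFP and is named for the VE-cadherin gene Cdh5. Femurs and tibias without the epiphysis were digested, lineage-positive haematopoietic cells were depleted, and cells with both labels were sorted and sequenced with the 10x Genomics 3′ chemistry. The groups were juvenile (3 weeks, male and female), adult (12 weeks, female) and aged (75 weeks, female) mice without treatment, and 12-week female mice given PTH or the bisphosphonate alendronate. Mice were pooled within a group and each group was sequenced as 2 libraries, so that the spread between libraries does not measure variation between mice, and sex and age cannot be told apart in the juvenile comparison.

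Gap junctions are channels between neighbouring cells, built from connexin proteins, and pass ions and small molecules. In arteries they couple ECs to each other and to smooth muscle and carry vasodilator signals along the vessel. Gja4 and Gja5 encode the connexins typical of arterial endothelium, whereas Gja1 encodes a connexin found in many cell types. Bmx is a cytoplasmic tyrosine kinase of the Tec family, Stmn2 belongs to the stathmins, which destabilise microtubules, Gkn3 belongs to the gastrokines, first known from the stomach, and Egfl8 encodes a protein with EGF-like domains.

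On GRCm38, the assembly also called mm10, and by the gene spans of GENCODE, the connexin genes lie at chr4:127311421-127314039 on the minus strand (Gja4), chr3:96904693-97077416 on the plus strand (Gja5) and chr10:56377330-56402513 on the plus strand (Gja1). Bmx lies at chrX:164192842-164258193 and Gkn3 at chr6:87383256-87388935, both on the minus strand. Stmn2 lies at chr3:8509360-8561606 on the plus strand, with Hey1, a Notch target gene, as its nearest protein-coding neighbour at 101753 bases. Egfl8 lies at chr17:34613349-34615971 on the minus strand. Exons of Gja5 overlap those of Gpr89 on the opposite strand, and exons of Egfl8 overlap Agpat1 on the opposite strand and Gm20460 on the same strand. The strand setting of the counting is not given in the sources used here, so that reads from these shared stretches cannot be assigned and the values of Gja5 and Egfl8 carry that uncertainty.

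The 250 bases before the start of the gene, from RefSeq on GRCm38.p6, are shown for the 3 connexins, on which most results turn, and for Bmx, the one member whose stretch held the core of an RBPJ site. For Gja5 the RefSeq start lies inside the longer GENCODE span, so that its stretch does too. The stretches are read 5′ to 3′ on the strand of the gene, and capitals mark a motif core found by search on both strands.
Gja4, chr4:127314040-127314289, minus strand: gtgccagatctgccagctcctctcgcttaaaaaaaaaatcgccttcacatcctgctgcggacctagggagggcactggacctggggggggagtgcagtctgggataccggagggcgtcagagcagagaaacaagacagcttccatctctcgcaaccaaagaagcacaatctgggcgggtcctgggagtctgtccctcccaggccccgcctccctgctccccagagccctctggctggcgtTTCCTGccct
Gja5, chr3:97032152-97032401, plus strand: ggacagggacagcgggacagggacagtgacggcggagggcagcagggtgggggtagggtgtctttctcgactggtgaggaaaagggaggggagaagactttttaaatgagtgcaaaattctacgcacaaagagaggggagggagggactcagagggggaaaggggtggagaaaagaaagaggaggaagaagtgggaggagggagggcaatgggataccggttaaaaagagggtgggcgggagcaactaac
Gja1, chr10:56377050-56377299, plus strand: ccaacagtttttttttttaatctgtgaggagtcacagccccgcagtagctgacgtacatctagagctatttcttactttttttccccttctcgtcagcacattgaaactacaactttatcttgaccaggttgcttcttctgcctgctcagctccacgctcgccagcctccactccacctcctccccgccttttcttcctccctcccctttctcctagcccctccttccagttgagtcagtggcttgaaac
Bmx, chrX:164258194-164258443, minus strand: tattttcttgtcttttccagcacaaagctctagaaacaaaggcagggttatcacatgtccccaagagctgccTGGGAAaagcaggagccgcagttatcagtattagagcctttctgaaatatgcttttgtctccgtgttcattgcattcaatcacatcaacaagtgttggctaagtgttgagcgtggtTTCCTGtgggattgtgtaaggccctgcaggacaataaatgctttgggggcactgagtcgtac
The cores searched were TGGGAA for RBPJ, the DNA-binding partner of Notch, ACAATG for SOX factors, CAGGAA for ETS factors and CACGTG, the E-box of Hey factors. Gja4 held 1 ETS core, Bmx held 1 RBPJ and 1 ETS core, which share no base, and Gja5, Gja1, Gkn3 and Egfl8 held none of the 4. Stmn2 had no entry in the table. Among all 32851 stretches of this length the RBPJ core occurred in 21.594%, the SOX core in 10.691%, the ETS core in 25.71% and the E-box in 6.021%. A match describes these letters and is not a binding site.

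The 10 libraries held 10653583 to 28419323 UMIs (unique molecular identifiers, counted transcripts) in 47466 barcodes, and 46283 cells had 500 to 6000 genes and under 25% mitochondrial UMIs. Of these, 43840 were left once clusters named for other cell types were removed and are counted as ECs, in clusters whose classes were named from markers other than the members. Arterial (aEC-like) cells numbered 6930, metaphyseal (mpEC-like) cells 8980, sinusoidal bone marrow (bmEC-like) cells 13415, type R (rEC-like) cells 2949, tip-like cells 2082 and proliferating (pEC-like) cells 661. A cluster of 1935 cells led by Tagln and Vwf had 3 type R markers raised but Timp4 below that of the remaining ECs and is called Vwf-led. The naming rule gave it rEC-like, at a score of 1.29 against 0.681 for the next class, and it was renamed on Timp4 alone. Fmo2, another marker of that list, was among its leading genes, so that the size and levels of the rEC-like class depend on this choice. A further 6840 cells stayed unnamed. At resolution 0.3 and without integration, clusters led by Tagln, Ccl21a and Vwf were instead named lymphatic-like. In the main clustering 48 cells had that name. The unnamed cells included 120 led by Vpreb3, Igll1 and Cd79b, genes of B-cell precursors, and 531 led by haemoglobin genes, which are no clear ECs and remain in shares given of ECs. All 7 markers of the aEC-like class, Fbln5 and Sema3g among them, were above 0 in the aEC-like cells of every library. These markers had named the class, so that their presence is no separate support for the name. The members were kept out of the genes used for clustering.

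The aged libraries stood apart. They held 276 gene names beginning with U that no other library held, with 1.524% and 1.535% of their UMIs. They shared 3 to 4 barcodes with any other library against 10 to 88 among the others, and had the highest median depth, 5149 and 5056 UMIs per cell against 3075 to 4195. Genes with these names were not analysed, since the tables of the other libraries lacked them. Age and these differences in library preparation or processing cannot be told apart. In the aEC-like cells the median depth was 4649 and 4631 UMIs in the aged libraries and 2727 to 4295 in the others. The share of ECs in the aEC-like class ran from 5.83% in juvenile library 1 to 27.7% in aged library 1.

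The CPM of a class are its UMIs for a gene scaled to its total UMIs in 1 library, and 3′ counts of different genes are not set against each other. Among the connexins, Gja4 stood at 1297 ± 348 CPM in aEC-like cells (mean ± SD, n = 10 libraries). It followed in mpEC-like cells at 128 ± 57.9 CPM, in rEC-like cells at 84.8 ± 45.8, in pEC-like cells at 66.9 ± 62.7 (9 libraries) and in tip-like cells at 62.4 ± 27.6, and was lowest in bmEC-like cells at 15.9 ± 15.6. The aEC-like range of 720 to 1703 CPM lay above every value of the other EC classes. Within libraries, mpEC-like cells lay above rEC-like cells in 9 of 10 and above tip-like cells in 9, and rEC-like cells above tip-like cells in 8, although the ranges of these 3 classes over libraries overlapped. Gja5 was at 262 ± 83.1 CPM in aEC-like cells, 30.2 ± 21.2 in rEC-like cells and 2.81 to 10.1 in the means of bmEC-like, mpEC-like, tip-like and pEC-like cells. The ranges below aEC-like overlapped between neighbours, with rEC-like cells above tip-like cells in 9 of 10 libraries.

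Gja1 had another order. It was highest in tip-like cells at 307 ± 48.6 CPM, followed by rEC-like cells at 231 ± 135, mpEC-like cells at 194 ± 30.5 and aEC-like cells at 182 ± 63, and reached 97.6 ± 15 in bmEC-like cells. Tip-like cells led in 8 of 10 libraries and rEC-like cells in 2, and the ranges of all 4 leading classes overlapped. The rEC-like cells lay above mpEC-like cells in 5 of 10 libraries, so that these neighbours had no fixed order. Mesenchymal-like cells also carried Gja1, at 221 ± 74.2 CPM over 9 libraries.

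Of the other members, Bmx was at 120 ± 30.2 CPM in aEC-like cells, 17.9 ± 12.1 in the Vwf-led cluster, 11.8 ± 7.87 in rEC-like cells and 1.19 to 4 in the means of the remaining named EC classes. Gkn3 was at 183 ± 118 CPM in aEC-like cells and 7.4 ± 7.7 in rEC-like cells, and its means in the other named EC classes were 2.19 to 3.59. Stmn2 was at 755 ± 163 CPM in aEC-like cells and 458 ± 97.8 in rEC-like cells, far above its 13.8 ± 10.4 in mpEC-like and 8.05 ± 7.18 in bmEC-like cells. The Vwf-led cluster held Stmn2 as well, at 225 ± 41 CPM, with Gja4 at 31.9 ± 17.6. Egfl8 was at 251 ± 79.5 CPM in aEC-like cells and 4.53 to 14.8 in the means of the other named EC classes. In all 10 libraries aEC-like cells led in each member except Gja1.

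**Figure D1:**
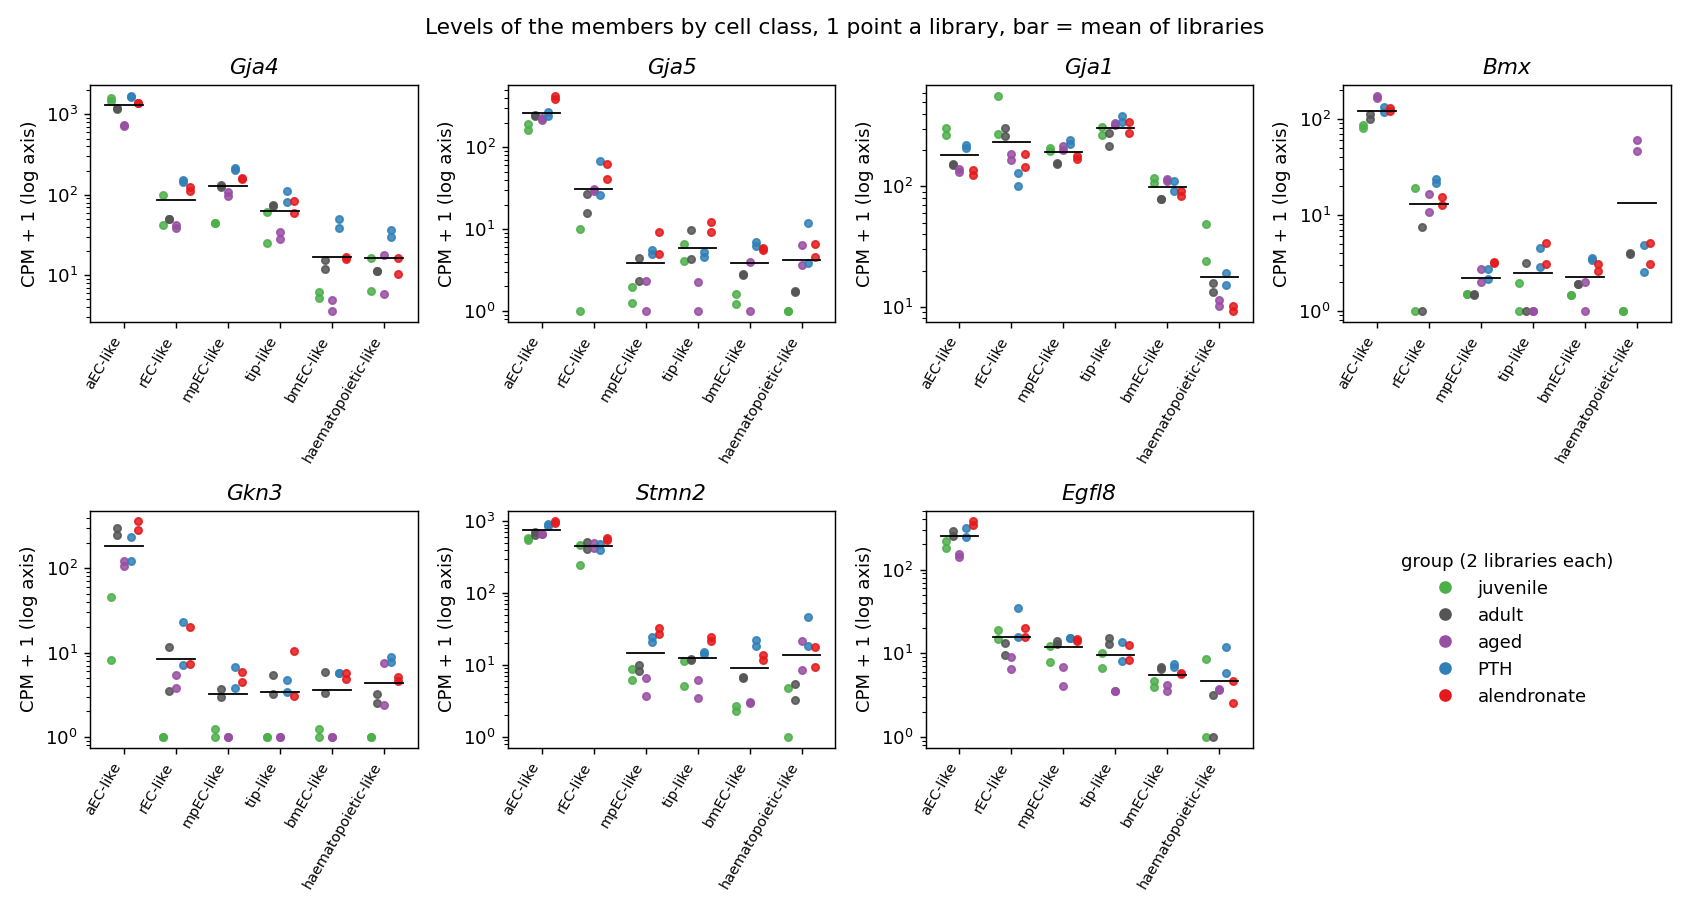
CPM + 1 (log axis) of each member in 6 cell classes, 1 point per library coloured by group, with the mean of the libraries as a bar. All members but Gja1 were highest in aEC-like cells, Stmn2 was second in rEC-like cells, and the 2 aged libraries carried Bmx in haematopoietic-like cells at 58.7 and 45.3 CPM.

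The aEC-like class, on average 16.6% of ECs per library, held 80% of the Gja4 UMIs of all ECs, 91.8% of Gja5, 89.3% of Bmx, 92.8% of Gkn3, 77% of Stmn2 and 83.3% of Egfl8, and 17.3% of Gja1. The rEC-like class held 11.2% of the Stmn2 UMIs and 2.51% or less of those of Gja4, Gja5, Bmx, Gkn3 and Egfl8. Cells picked by at least 1 UMI each of Fbln5 and Sema3g showed Gja4 at 1107 ± 297 CPM and Stmn2 at 686 ± 149 (n = 10 libraries). Cells with Timp4 and Aqp7 had Gja4 at 38.5 ± 28.3 and Stmn2 at 322 ± 109 CPM, and Gja5, Bmx and Gkn3 at 9.48 ± 8.93, 5.04 ± 10 and 1.45 ± 1.94, each below its mean in the rEC-like class. Cells with Stab2 had Gja4 at 16.2 ± 13.2 and Stmn2 at 7.76 ± 6.64, and cells with Apln had Gja4 at 58.7 ± 35.2. For Gja1 the order of the picked cells was not that of the classes, with 242 ± 132 CPM in cells with Timp4 and Aqp7, 187 ± 34.8 in cells with Apln and 168 ± 41.6 in cells with Fbln5 and Sema3g, and these overlapped.

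Shares of cells were compared after thinning each cell to 1000 UMIs, which left out 279 of 6930 aEC-like cells. Gja4 was detected in 61.9% ± 10.2 of aEC-like cells, against 1.73% of 1328 haematopoietic-like cells (95% Clopper-Pearson interval 1.1 to 2.59%). Whether some of the latter express Gja4 was not tested. Their cluster led by Elane and Mpo, of 848 cells before thinning, had megakaryocyte-like as its next class. The median depth before thinning was 3250.5 UMIs in aEC-like and 5233 in haematopoietic-like cells. Stmn2 was detected in 1.28% of these haematopoietic-like cells, Gja1 in 1.2%, Egfl8 in 0.377%, Gja5 in 0.301% and Gkn3 in 0.226%. The intervals cover counting error only. In mpEC-like and bmEC-like cells, Gja5 and Gkn3 at 2.19 to 2.82 CPM were not above their mean of 3.25 and 3.37 CPM in haematopoietic-like cells, and are read as background. The same holds for bmEC-like cells in Stmn2, at 8.05 against 12.6 CPM. For Gja4, the 15.9 CPM of bmEC-like cells lay beside 15.2 in haematopoietic-like and 17.3 in erythroid-like cells and was not set apart from these. Stmn2 in mpEC-like cells, at 13.8 ± 10.4 CPM, was not set apart from that 12.6 CPM either.

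Within the aEC-like class, cells carried 1.78 ± 0.247 of the 7 members at 1000 UMIs, 26.1% ± 7.16 carried 3 or more and 14.3% ± 5.24 carried none (n = 10 libraries). The 21 pairs of members were compared by the ratio of cells with both to the number expected if detection in a cell were independent within a library. Bmx, Gkn3, Gja5 and Egfl8 went together. The ratio over all libraries was 1.96 for Bmx with Gkn3, 1.86 for Gja5 with Gkn3, 1.76 for Gkn3 with Egfl8, 1.72 for Gja5 with Bmx, 1.7 for Gja5 with Egfl8 and 1.46 for Bmx with Egfl8. Stmn2 was found with each of these 4 at a ratio over 1 as well, at 1.4 with Gkn3, 1.32 with Bmx, 1.28 with Egfl8 and 1.24 with Gja5. In cells with a Gja5 UMI, 35.5% ± 9.6 had Egfl8, against 16.6% ± 4.29 of cells without. Gja4, present in most cells, had ratios of 1 to 1.11 with the other members. The ratio of so common a gene has a low upper limit, so that these are not set against those of rarer pairs. Egfl8 was in 22.8% ± 6.01 of cells with Gja4 and 16.2% ± 5.28 of cells without. Gja5 was in 21.1% and 16.5%, Stmn2 in 45.2% and 37.9%, and Gkn3, with the smallest difference, in 8.51% and 8.2%. Gja1 was found less with the rest, at 0.269 with Gkn3, 0.65 with Egfl8, 0.662 with Bmx, 0.674 with Stmn2 and 0.814 with Gja5, and at 1.04 with Gja4. These ratios are descriptions, over cells that share libraries.

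**Figure D2:**
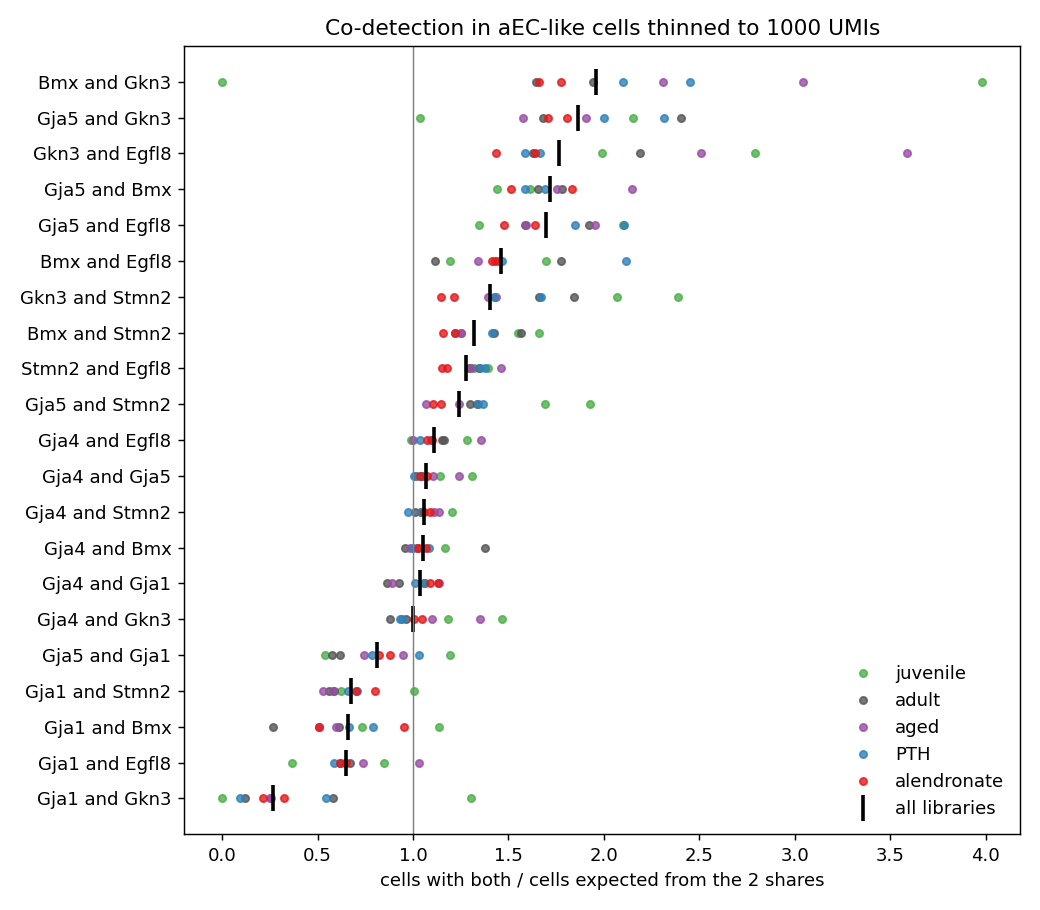
Ratio of aEC-like cells with both members to the number expected from the 2 shares, for 21 pairs at 1000 UMIs per cell, with 1 point per library and the value over all libraries as a black mark. Bmx with Gkn3 stood highest at 1.96 and Gja1 with Gkn3 lowest at 0.269, and the juvenile libraries, with few Gkn3 cells, scattered most.

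The aEC-like class was made of 2 larger clusters and 67 further cells. One, of 4966 cells, was led by Gja4, Car7 and Nebl, and the other, of 1897 cells, by Gkn3, Mgp and Htra1, with Gja5 and Egfl8 also among its 10 leading genes. What follows for Gja4, Gkn3, Gja5 and Egfl8 therefore partly restates the clusters. Gja4 overlapped between them, at 1337 ± 358 and 1259 ± 396 CPM (n = 10 libraries). Leading genes are those raised against all other ECs, so that Gja4 does not set the larger cluster apart from the smaller. Within libraries Gja4 was higher in the smaller cluster in juvenile mice, at 1618 and 1936 against 1493 and 1546 CPM. It was lower there in every library of the other groups, in PTH libraries at 1398 and 1449 against 1710 and 1810 CPM. Gja5 was at 156 ± 72.8 CPM in the larger and 595 ± 86.5 in the smaller cluster, Bmx at 71.9 ± 18.4 and 268 ± 63.8, Egfl8 at 172 ± 63.2 and 500 ± 127, and Stmn2 at 587 ± 158 and 1313 ± 209. Gkn3 was at 17.8 ± 24.4 CPM in the larger and 664 ± 397 in the smaller. Gja1 went the other way, with 221 ± 68.3 CPM in the larger and 65.2 ± 25.2 in the smaller cluster. The smaller cluster took 20.8% and 22.5% of aEC-like cells in the juvenile libraries and 23.7 to 32.2% in the others.

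**Figure D3:**
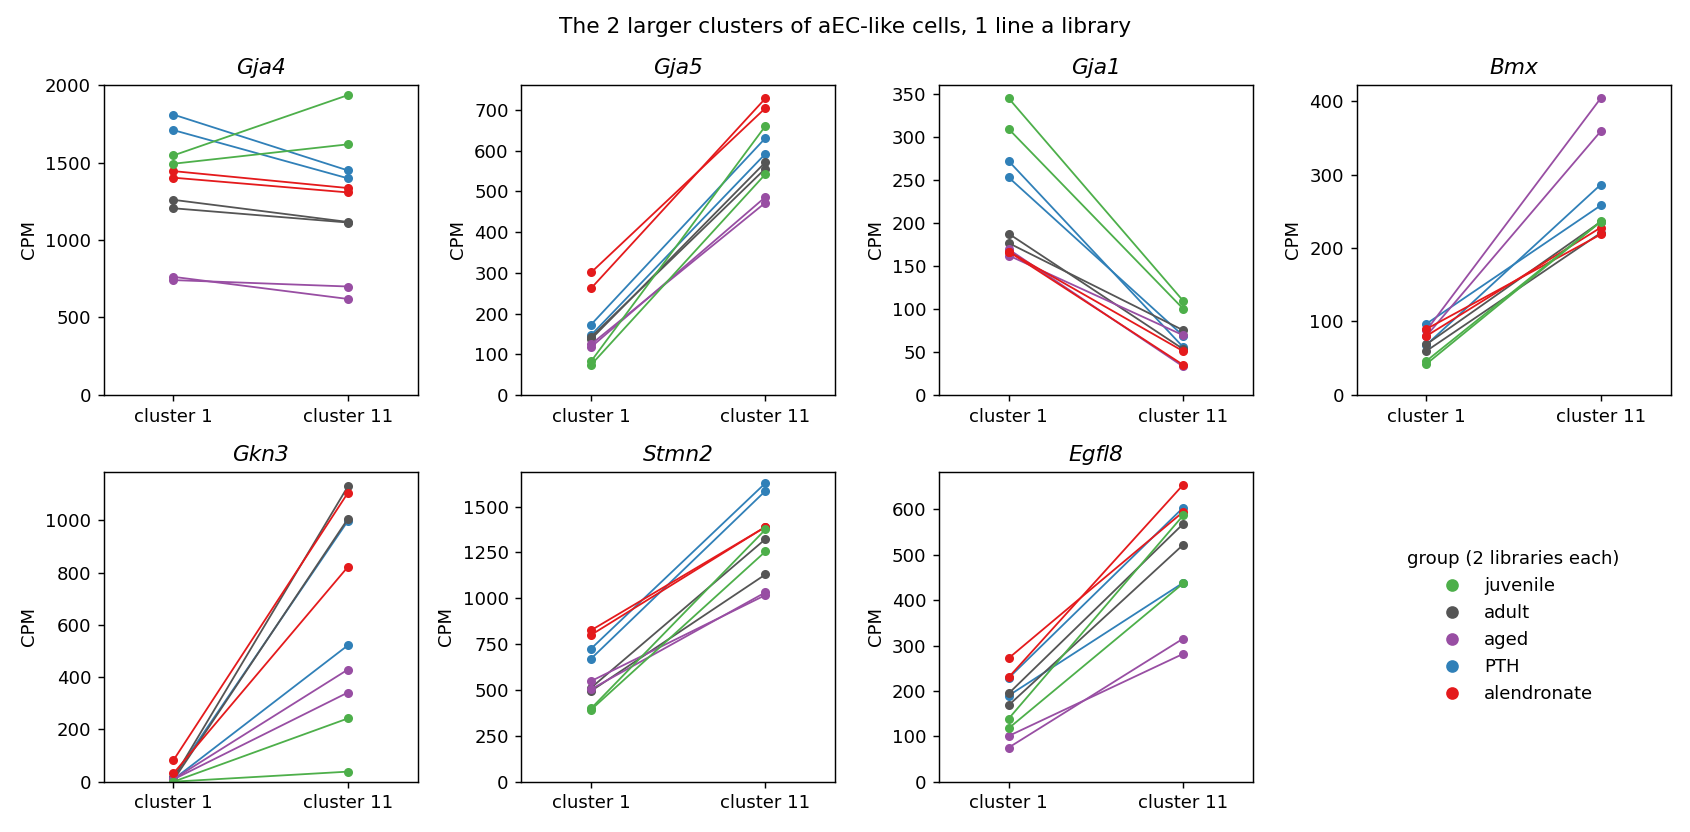
CPM of each member in the 2 larger aEC-like clusters, cluster 1 with 4966 cells and cluster 11 with 1897, with 1 line per library coloured by group. Gja5, Bmx, Gkn3, Stmn2 and Egfl8 were higher in cluster 11 in all 10 libraries and Gja1 was lower. Gja4 was higher in cluster 11 in the juvenile libraries and lower in the libraries of every other group.

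Over the 59 sums of a class and library in the 6 named classes, the genes most like a member were Vegfc (Pearson r = 0.904), Mapk3 and Tsc22d1 for Gja4, Htra1 (0.917), Col8a1 and Eps8l2 for Gja5, and Zdhhc20 (0.817), Col4a2 and Col4a1 for Gja1. They were Col8a1 (0.931), Pcsk5 and Htra1 for Bmx, Tspo (0.886), Pcsk5 and Clu for Gkn3, Ptprr (0.963), Tmem100 and Edn1 for Stmn2, and Fbln5 (0.9), Rfk and Ak3 for Egfl8. The sums share libraries and differ in depth, and the coefficients, of log2(CPM + 1), are descriptions. Among the members, Gja5 and Bmx were most alike (0.915), and Gja1 had coefficients of -0.14 to 0.259 with the other 6.

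To see how the arterial genes varied with age, with PTH, which stimulates bone formation, and with alendronate, which inhibits resorption, ages and treatments were compared with the adult libraries in the sums of aEC-like, mpEC-like and rEC-like cells, by edgeR's quasi-likelihood test over all genes at an adjusted p under 0.05. The 4 comparisons share the adult libraries. Results by class, age and treatment were known when the members were chosen, so that the tests are no independent support, and each count of members stands beside the share of all genes called, with nothing read from the pair. Log2 fold changes also use TMM scaling factors, which were 1.06 in both aged and 0.973 to 1 in the other aEC-like sums, so that a fold change and a ratio of plain CPM differ. In mpEC-like sums they were 1.15 and 1.12 in the aged and 0.97 in both adult libraries. Aged changes there lie further below the ratio of plain CPM. With 2 libraries against 2, an exact permutation test of 1 gene cannot go below p = 0.333, and the fit instead draws on all 10 libraries and all genes. Since mice were pooled within a group, its p-values do not measure variation between mice.

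In juvenile aEC-like sums 6 of 7 members were called, where 15.3% of 11356 genes were called, 2 of them higher (Gja4, Gja1) and 4 lower (Gja5, Gkn3, Stmn2, Egfl8). In aged sums all 7 were called, where 58.7% of genes were called, Bmx higher and the other 6 lower, and DESeq2 called 3 of the 7 (Gja4, Bmx and Egfl8), where it called 43.4% of genes. In PTH sums 4 were called against 7.68% of genes, Gja4, Gja1 and Stmn2 higher and Gkn3 lower. In alendronate sums 4 were called against 7.71% of genes, Gja4, Gja5, Stmn2 and Egfl8, all higher. The median log2 fold change of the members was -0.34, -0.29, 0.26 and 0.28 in the same order, and that of all genes 0, -0.02, 0 and -0.01.

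Gja4 stood at 1484 and 1602 CPM in the juvenile aEC-like sums, 1168 and 1207 in adult, 728 and 720 in aged, 1619 and 1703 in PTH and 1362 and 1380 in alendronate. No group overlapped the adult libraries, and the aged ones were the lowest. The log2 fold change was 0.38 ± 0.05 (SE) in juvenile, -0.82 ± 0.05 in aged, 0.47 ± 0.05 in PTH and 0.22 ± 0.05 in alendronate sums, with edgeR adjusted p of 7.2e-07, 2.03e-16, 7.34e-09 and 0.0024. The alendronate change was no longer called without adult replicate 1 (0.21) or with aEC-like cells that held Stab2, Ptprc or Timp4 left out (0.17).

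Gja5 stood at 194 and 161 CPM in juvenile, 242 and 249 in adult, 216 and 226 in aged, 243 and 272 in PTH and 388 and 426 in alendronate sums. The alendronate libraries were the highest and the juvenile ones the lowest. Gja5 rose by 0.75 ± 0.07 on the log2 scale with alendronate (edgeR adjusted p = 1.09e-09), whereas the PTH difference was 0.07 ± 0.08 (edgeR adjusted p = 0.72). The juvenile change was -0.47 ± 0.1 and the aged one -0.26 ± 0.08, with edgeR adjusted p of 0.000559 and 0.0045, and they were no longer called without juvenile replicate 2 (-0.33) and aged replicate 1 (-0.2). Clustered without integration the juvenile change was -0.08 (edgeR adjusted p = 0.695), and by DESeq2 the aged one was -0.23 (adjusted p = 0.0632).

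Gja1 stood at 264 and 302 CPM in juvenile, 154 and 151 in adult, 137 and 130 in aged, 222 and 208 in PTH and 135 and 123 in alendronate sums. Juvenile and PTH libraries lay above all others. Gja1 rose by 0.9 ± 0.09 on the log2 scale in juvenile (edgeR adjusted p = 8.97e-10) and by 0.47 ± 0.08 in PTH sums (edgeR adjusted p = 7.99e-05), and fell by 0.29 ± 0.09 in aged ones (edgeR adjusted p = 0.0036). The aged change was 0.22, in the other direction and called, without integration (edgeR adjusted p = 0.0215), -0.08 and not called in cells picked by Fbln5 and Sema3g, and -0.27 by DESeq2 (adjusted p = 0.0562). What the aEC-like class held without integration is given below with Bmx. In the picked cells the PTH change was 0.31 (edgeR adjusted p = 0.054), and in the Gkn3-led cluster alone, where Gja1 was low, it was 0.003 (edgeR adjusted p = 1). The alendronate difference of -0.23 ± 0.09 did not pass (edgeR adjusted p = 0.11), although the libraries did not overlap.

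Bmx was the member that was higher in aged aEC-like cells. Its sums stood at 172 and 161 CPM there, against 98.6 and 110 in adult, 84.7 and 78.6 in juvenile, 115 and 132 in PTH and 119 and 129 in alendronate libraries. The aged libraries were the highest and the juvenile ones the lowest, with no overlap with adult in any group. The aged change was 0.58 ± 0.09 (edgeR adjusted p = 1.23e-06). When the libraries were clustered without integration, the aged change of Bmx was -0.75, in the other direction and called (edgeR adjusted p = 2.26e-09), and that clustering put 1317 and 1368 aged cells in the aEC-like class in place of 618 and 631. The aEC-like class then included a cluster of 2676 cells led by Gm10800, Cd74 and H2-Eb1, with mpEC-like as its next class. Almost no aged cells were left as mpEC-like. The aged values without integration may therefore not be of arterial cells alone, which was not tested. In cells of the Gja4-led cluster described above alone the aged change was 0.3 and not called (edgeR adjusted p = 0.0735). The juvenile, PTH and alendronate changes of -0.34, 0.26 and 0.28 had edgeR adjusted p of 0.072, 0.0885 and 0.0661.

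Gkn3 varied most. It stood at 45.1 and 7.14 CPM in juvenile aEC-like sums, from 48 UMIs in 480 cells, against 250 and 301 CPM in adult, 123 and 106 in aged, 121 and 237 in PTH and 359 and 284 in alendronate sums. The 2 juvenile libraries differed from each other by a larger ratio than those of any other group, and both lay below all others. The juvenile log2 fold change was -3.42 ± 0.3 and the aged one -1.37 ± 0.17 (edgeR adjusted p = 1.36e-11 and 5.43e-09). The juvenile change was -5.26 without juvenile replicate 1 and -2.6 without juvenile replicate 2, both called, and DESeq2 gave -1.34 with an adjusted p of 0.126 for the aged change. The PTH change of -0.53 ± 0.15 (edgeR adjusted p = 0.027) rested on PTH library 1 and adult library 2, without which it was -0.23 and -0.4 and was no longer called, and in the Gkn3-led cluster alone, which held most of the Gkn3, it was -0.42 and not called (edgeR adjusted p = 0.104). In the Gja4-led cluster, where Gkn3 was low, it was 0.58 (edgeR adjusted p = 0.581). DESeq2 gave -0.63 for it (adjusted p = 0.99), and it was also not called without the filter on low counts, at resolution 0.8, in cells picked by Fbln5 and Sema3g or with the stricter cell filter (-0.51 to -0.47). The alendronate difference was 0.25 ± 0.15 (edgeR adjusted p = 0.378). Within the Gkn3-led cluster the CPM were 242 and 38.4 in juvenile and 1006 and 1130 in adult libraries, so that Gkn3 was also lower among those cells.

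Stmn2 stood at 580 and 549 CPM in juvenile, 707 and 650 in adult, 672 and 657 in aged, 866 and 922 in PTH and 955 and 994 in alendronate sums. Both treatments lay above all untreated libraries, with log2 fold changes of 0.38 ± 0.06 for PTH and 0.54 ± 0.06 for alendronate (edgeR adjusted p = 4.52e-06 and 4.77e-09). In the Gkn3-led cluster alone, where Stmn2 was highest, the alendronate change was 0.175 and not called (edgeR adjusted p = 0.434). The juvenile change was -0.26 ± 0.06 (edgeR adjusted p = 0.0039), no longer called without juvenile replicate 2 (-0.22) or adult replicate 1 (-0.2), and without integration it was 0.045. The aged change of -0.14 ± 0.06 (edgeR adjusted p = 0.0393) was small, its libraries lay within the adult range, and it was no longer called without adult replicate 1 (-0.09), aged replicate 1 (-0.13) or aged replicate 2 (-0.13). Its call was also lost by DESeq2 or its size factors (-0.11 each), at resolution 0.3 (-0.13) and 0.8 (-0.06), with the stricter cell filter (-0.08) and with cells that held Stab2, Ptprc or Timp4 left out (-0.12). The mean CPM were 678 in adult and 665 in aged sums, so that the TMM factors made up part of this change.

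Egfl8 stood at 179 and 220 CPM in juvenile, 252 and 286 in adult, 140 and 154 in aged, 246 and 311 in PTH and 344 and 375 in alendronate sums. The aged libraries were the lowest and the alendronate ones the highest. Egfl8 fell by 0.98 ± 0.09 on the log2 scale in aged sums (edgeR adjusted p = 8.87e-12) and rose by 0.44 ± 0.08 with alendronate (edgeR adjusted p = 0.000287). The juvenile change of -0.42 ± 0.11 (edgeR adjusted p = 0.0053) was no longer called without juvenile replicate 1 (-0.29) or adult replicate 2 (-0.34), without integration (-0.09), in cells picked by Fbln5 and Sema3g (-0.27), without the filter on low counts (-0.44) or with cells that held Stab2, Ptprc or Timp4 left out (-0.33). The alendronate change was 0.45 and not called without the filter on low counts (edgeR adjusted p = 0.0923), and 0.193 and not called in the Gkn3-led cluster alone (edgeR adjusted p = 0.531). PTH gave 0.07 ± 0.08 (edgeR adjusted p = 0.776).

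Of the remaining changes, those not called in the Gkn3-led cluster alone were, in juvenile sums, Gja5 (0.084), Gja1 (0.715), Stmn2 (0.092) and Egfl8 (-0.087), Gja1 in aged sums (-0.395) and Gja4 in alendronate sums (0.243). That cluster held fewer cells and edgeR called fewer genes in it in every comparison. In the Gja4-led cluster alone, the aged change of Gkn3 was -0.16 and not called, and that of Stmn2 was -0.028.

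**Figure D4:**
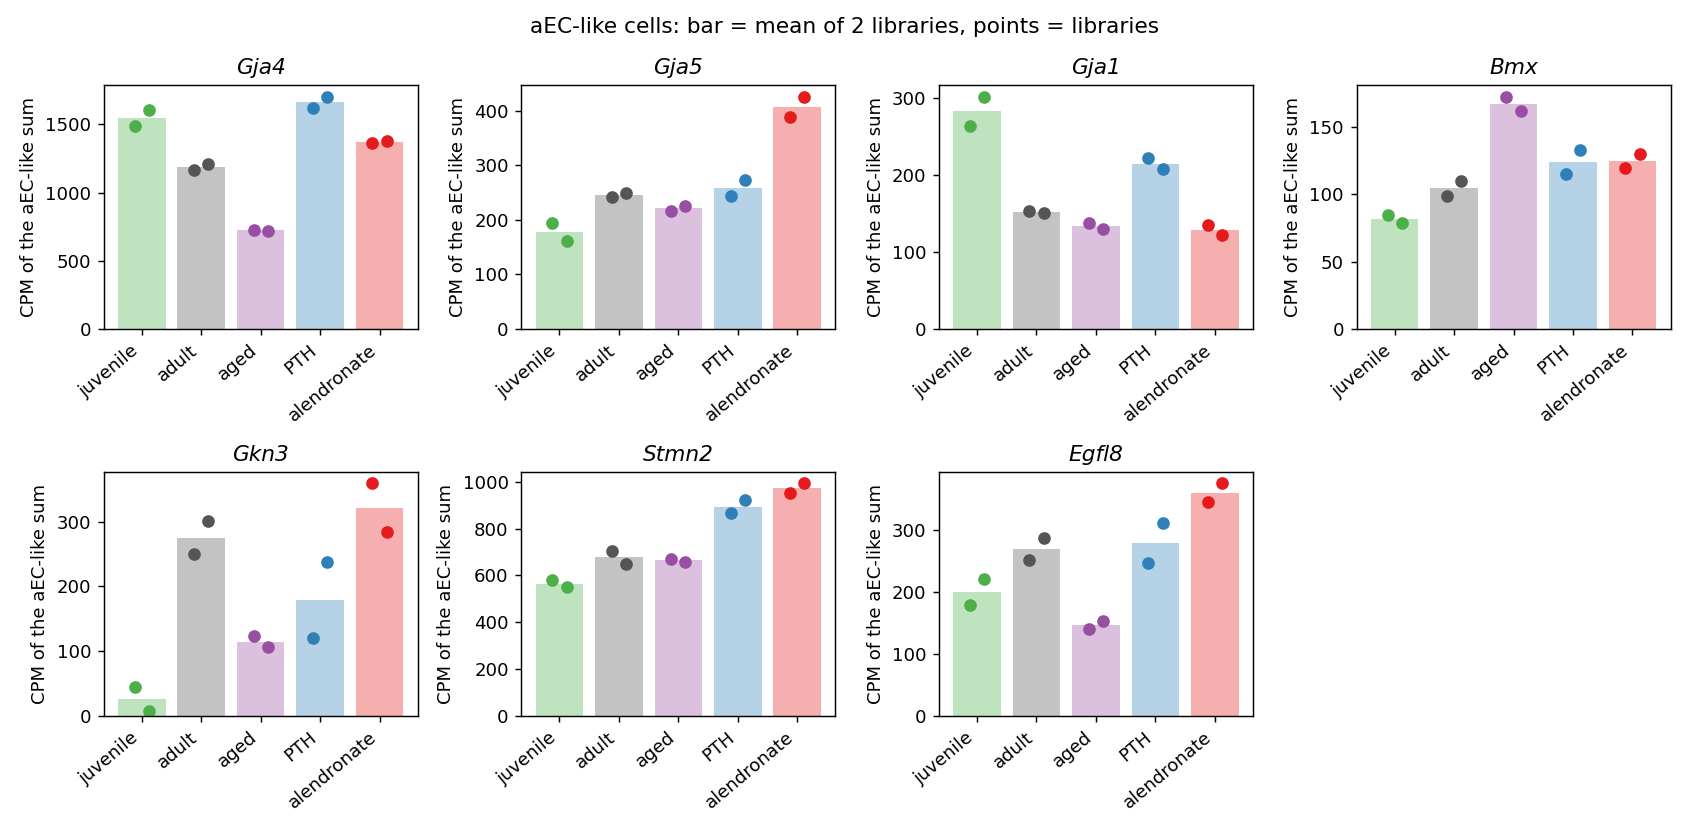
CPM of each member in the aEC-like sums by group, with bars from 0 as the mean of 2 libraries and points as the libraries. Gja4 was lowest in aged mice at 728 and 720 CPM, Gkn3 lowest in juvenile mice at 45.1 and 7.14, and Bmx highest in aged mice at 172 and 161.

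Markers of other cells moved with some of these values in the aEC-like sums. The 8 markers of the bmEC-like list summed to 354 and 375 CPM in the aged libraries and 571 to 977 in the others, and the 6 of the mpEC-like list to 2854 and 2906 in the juvenile and 865 to 1973 in the others. The erythroid list was at 2024 CPM in alendronate library 2 and 17 to 352 in the other 9. The 7 markers of the aEC-like list summed to 3527 and 3740 CPM in juvenile, 4079 and 4141 in adult and 5200 and 5260 in aged sums. The part of these markers in the results was not tested. Without alendronate library 2 the alendronate count was still 4 members, and without both aged libraries, an alternative added after seeing the data, the juvenile, PTH and alendronate counts stayed at 6, 4 and 4.

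In mpEC-like sums 6 members were tested, since Bmx, with 4 to 16 UMIs in a group, did not pass the filter on low counts. In juvenile sums 3 were called, where 26.9% of 12033 genes were called, and in aged sums all 6, where 62.6% were. In PTH sums 3 were called against 15.9% of genes, and in alendronate sums 3 against 10.9%. Gja4 stood at 43.3 and 44.2 CPM in juvenile, 132 and 125 in adult, 108 and 96.9 in aged, 200 and 214 in PTH and 158 and 162 in alendronate sums. The juvenile libraries were the lowest, below adult where the juvenile aEC-like sums were above, and the treated ones were the highest. The log2 fold changes were -1.53 ± 0.09, -0.55 ± 0.08, 0.67 ± 0.07 and 0.35 ± 0.07, with edgeR adjusted p of 1.36e-16, 3.43e-07, 7.72e-10 and 0.00103. When libraries were clustered without integration the juvenile and alendronate values were -0.005 and -0.14, neither of them called. Cells picked by Apln and no Stab2, Fbln5 with Sema3g or Timp4 with Aqp7, 20 to 284 per library, were a mixture, of which 46.2% were mpEC-like and 22.2% tip-like by cluster, so that their values are no measure of mpEC-like cells alone. The juvenile value of Gja4 was 0.85 in them, and no member (0) was called, where edgeR called 3.06%, 25.8%, 0.297% and 1.25% of genes in juvenile, aged, PTH and alendronate sums.

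The mpEC-like class joined 2 clusters whose shares moved with age. The cluster led by Igfbp5 and Lrrc55 made up 64.3% and 63.8% of mpEC-like cells in juvenile, 42.3% and 41.4% in adult and 34.1% and 32.1% in aged libraries. Gja4 was lower in juvenile than in adult mice in both clusters, at 10.4 and 10.6 against 62.1 and 28.8 CPM in that cluster, and at 108 and 108 against 185 and 198 CPM in the other. In fits of each cluster alone, added after seeing the data, the juvenile change was -2.12 and -0.79, both called by edgeR, and the alendronate change was -0.55 and 0.34, of which the second was called.

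Gja1 in mpEC-like sums stood at 209 and 195 CPM in juvenile, 155 and 151 in adult, 201 and 216 in aged, 226 and 242 in PTH and 177 and 169 in alendronate libraries. The adult libraries were the lowest. The change was 0.42 ± 0.07 in juvenile, 0.22 ± 0.07 in aged and 0.59 ± 0.07 in PTH sums (edgeR adjusted p = 8.97e-06, 0.0082 and 9.96e-09), and that of alendronate, 0.21 ± 0.07, did not pass (edgeR adjusted p = 0.0612). In the Igfbp5-led cluster alone the juvenile and aged changes were 0.129 and 0.074, neither called (edgeR adjusted p = 0.423 and 0.612). The aged call was lost without adult replicate 2 (0.2), aged replicate 2 (0.14) or the filter on low counts (0.13), and in the cells picked by Apln the value was -0.29.

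Stmn2 was low in mpEC-like cells and higher after treatment, at 5.16 and 7.9 CPM in juvenile, 8.83 and 7.24 in adult, 5.53 and 2.68 in aged, 20 and 23.7 in PTH and 25.8 and 31.6 in alendronate sums. The log2 fold change was 1.45 ± 0.2 with PTH and 1.86 ± 0.2 with alendronate (edgeR adjusted p = 7.8e-07 and 1.37e-08), and the PTH value was -0.36, not called, in the cells with Apln. Cells that should lack Stmn2 moved in the same direction. Haematopoietic-like cells were at 4.36 and 2.23 CPM in adult, 45.3 and 17.2 in PTH and 16.7 and 8.21 in alendronate libraries, and bmEC-like cells at 5.58 and 5.83, 21.6 and 17.1, and 10.7 and 12.6. For Gja4 the bmEC-like sums were at 11 and 14.3 CPM in adult, 49.2 and 38 in PTH and 14.7 and 15.8 in alendronate libraries, and the haematopoietic-like ones at 10.2 and 10.4, 36 and 28.7, and 15.2 and 9.24. The part of this background in the changes outside aEC-like cells was not tested.

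The remaining mpEC-like calls were at few UMIs. Egfl8 was at 11.8 and 13 CPM in adult and 5.88 and 3.02 in aged sums, a log2 change of -1.69 ± 0.3 (edgeR adjusted p = 5.81e-06). Gkn3 had 20 UMIs in the adult, 1 in the juvenile and 0 in the aged sums, where the limit set by a count of 0, 3 UMIs over the group, makes it at least 4.65-fold lower than in adult ones. The adult level, like that of Gkn3 in mpEC-like cells in general, was near that of haematopoietic-like cells and is read as background. Gja5 had 20 UMIs in adult, 4 in aged and 45 in alendronate sums, and its aged and alendronate calls were lost without adult replicate 2 (-1.18) or aged replicate 1 (-1.02) and without adult replicate 1 (0.83) or alendronate replicate 2 (0.78). At resolution 0.3 the aged value was -0.17 (edgeR adjusted p = 0.802). The aged call was also lost by DESeq2 (-2.03), without the filter on low counts (-2.06) and with cells of high doublet score left out (-1.63). The alendronate call was also lost without that filter (1.38), at resolution 0.3 (1.09) and 0.8 (1.22) and with those cells left out (1.47). Stmn2 in aged sums, at -1.2 ± 0.34 (edgeR adjusted p = 0.0023), was lost without aged replicate 2 (-0.79), and in the cells picked by Apln the value was 1.12, not called.

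In rEC-like sums the depth was lower, with 32 to 660 cells per library. No member passed in juvenile sums, where edgeR called 3.36% of 8493 genes. DESeq2 called 0 members as well, a count given without its share of all genes. Gja1 was the one with an unadjusted edgeR p under 0.05 (0.0032). The median log2 fold change of all genes in that comparison was -0.1. In aged sums 1 was called against 46% of genes, in PTH sums 2 against 3.69% and in alendronate sums 3 against 2.81%. Gja1 stood at 566 and 272 CPM in juvenile, 304 and 260 in adult, 186 and 164 in aged, 101 and 129 in PTH and 184 and 145 in alendronate libraries. All aged and treated libraries lay below the adult ones. Gja1 fell by 0.75 ± 0.15 in aged, 1.2 ± 0.18 in PTH and 0.76 ± 0.15 in alendronate sums on the log2 scale (edgeR adjusted p = 1.12e-05, 3.6e-07 and 9.82e-05). The alendronate call was lost without adult replicate 1 (-0.63) or alendronate replicate 2 (-0.59) and by DESeq2 (-0.76, adjusted p = 0.0766). In cells picked by Timp4 and Aqp7, where the 13 cells of PTH library 1 were under the minimum of 20 and the PTH arm kept 1 library, the PTH change was -0.75 (edgeR adjusted p = 0.291).

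Gja4 in rEC-like sums stood at 98.9 and 40.8 CPM in juvenile, 49.2 and 49.6 in adult, 38.2 and 41.4 in aged, 145 and 151 in PTH and 110 and 124 in alendronate libraries. The treated libraries were the highest, with changes of 1.59 ± 0.24 and 1.26 ± 0.22 (edgeR adjusted p = 4.52e-07 and 1.97e-05). Neither call held under every way of drawing the cells. The PTH change was 0.7 without integration (edgeR adjusted p = 0.0829) and 1.25 in cells picked by Timp4 and Aqp7, with 1 PTH library (edgeR adjusted p = 0.425), and the alendronate change 0.75 at resolution 0.8 and 0.4 in the picked cells (edgeR adjusted p = 0.149 and 0.856). Gja5 was called with alendronate (1.31 ± 0.35, edgeR adjusted p = 0.0159), a call lost without adult replicate 2 (1.01) or alendronate replicate 2 (0.98), at resolution 0.8 (0.47), with cells of high doublet score left out (1.1) and by DESeq2 (1.32, adjusted p = 0.38), and in the picked cells the value was -0.097. Stmn2, at 245 to 592 CPM, passed in no comparison of rEC-like sums.

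**Figure D5:**
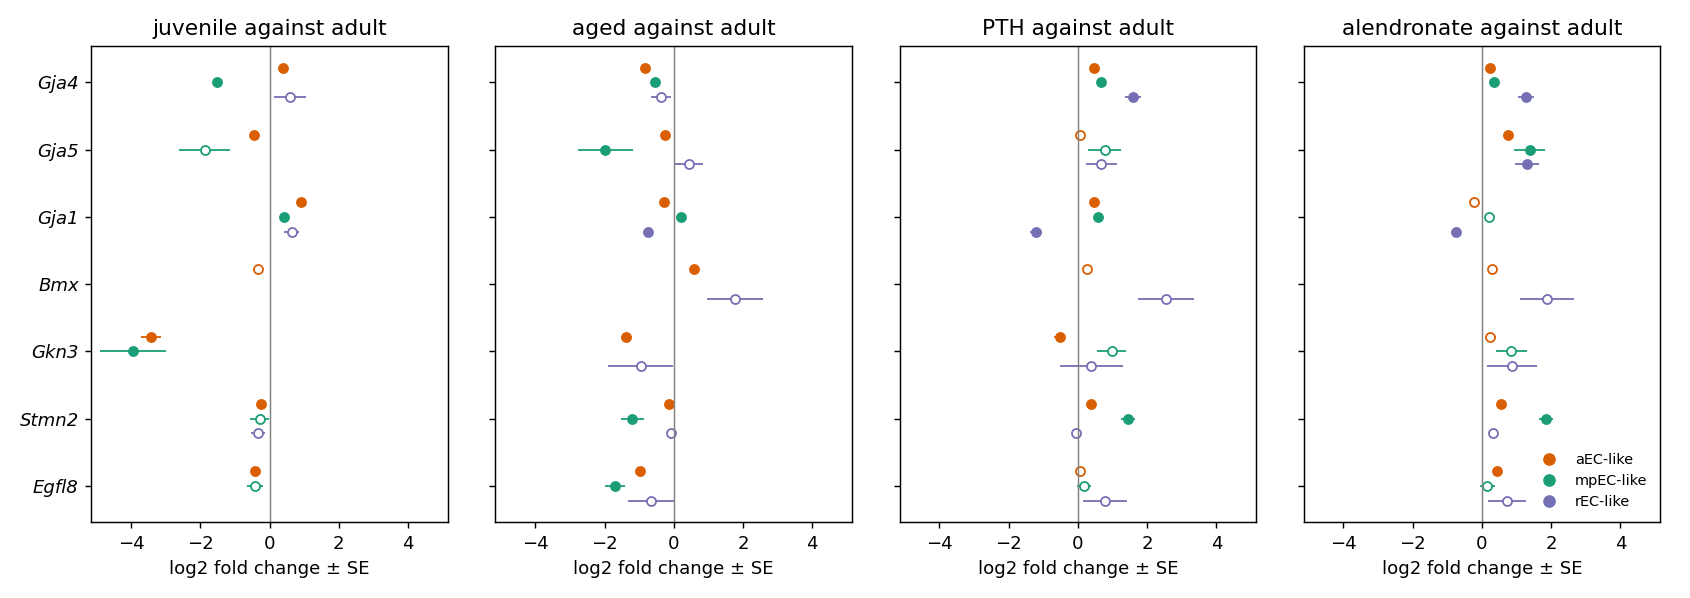
Log2 fold change against adult (± SE) of each member in aEC-like, mpEC-like and rEC-like sums, in 1 panel per comparison, with filled points for an edgeR adjusted p under 0.05 and open points for the rest. The 5 values with an SE of 1 or more are left out, among them Gkn3 in aged mpEC-like sums. Gja4 moved in opposite directions in juvenile aEC-like (0.38) and mpEC-like (-1.53) sums, and Gja1 in opposite directions in PTH aEC-like (0.47) and rEC-like (-1.2) sums.

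Whether a change differed between classes was tested by the interaction of class and group in 1 edgeR fit, chosen after seeing the data. Against aEC-like cells, the mpEC-like change differed for 2 of 7 members in juvenile (4.26% of 12257 genes), 4 in aged (4.84%), 2 in PTH (1.88%) and 2 in alendronate mice (1.26%). The rEC-like change differed for 0 members in juvenile mice, none of them at an unadjusted p under 0.05 (0.824% of 10676 genes), 1 in aged (3.02%), 2 in PTH (1.43%) and 1 in alendronate mice (1%). The juvenile change of Gja4 was 1.92 ± 0.09 lower on the log2 scale in mpEC-like than in aEC-like cells, and the PTH change of Gja1 1.65 ± 0.19 lower in rEC-like than in aEC-like cells, with edgeR adjusted p of 1.79e-23 and 1.28e-15. These differences use the clusters as drawn, and the Gja4 one shares the dependence on integration given above.

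Other genes of the same pathways were read in the aEC-like fit, in which 15.3%, 58.7%, 7.68% and 7.71% of all genes were called in juvenile, aged, PTH and alendronate sums. Of 17 connexin and pannexin genes 5 were tested, and besides the 3 members these were Gjc1, at 31 to 41.6 CPM in the group means, and Panx1, at 4.16 to 7.26, neither of which was called in any comparison. Of 7 tested gap junction partners, 3 were called higher and 0 lower in juvenile, 3 and 1 in aged, 1 and 1 in PTH and 1 and 1 in alendronate sums. The scaffold Tjp1, which binds connexins at the junction, rose by 0.75 ± 0.08 in aged sums, and Nedd4, a ubiquitin ligase, by 0.92 ± 0.06 (edgeR adjusted p = 1.75e-10 and 1.71e-15). Cdh5 rose by 0.51 ± 0.05 in juvenile sums (edgeR adjusted p = 1.26e-09). The 4 of 7 partners called in aged sums stand beside 58.7% of all genes. The list medians were 0.18, 0.1, 0.09 and 0.11.

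The arterial identity list of 23 genes, of which Unc5b was removed with the names beginning with U, had 5 of 22 called higher and 7 lower in juvenile, 11 and 5 in aged, 8 and 0 in PTH and 11 and 1 in alendronate sums, with medians of -0.03, 0.17, 0.19 and 0.3, and the aged count again beside 58.7% of all genes. Clu and Vegfc fell by 1.04 ± 0.11 and 0.93 ± 0.09 in juvenile sums (edgeR adjusted p = 1.96e-09 and 3.57e-10). The Notch ligands Jag2 and Jag1 rose by 1.6 ± 0.12 and 1.5 ± 0.09 in aged sums (edgeR adjusted p = 1.5e-14 and 8.72e-18), in which Bmx was called higher and the other 6 members lower. Cxcr4, the receptor of Cxcl12, rose by 1.18 ± 0.13 and the Notch target Hey1 by 0.65 ± 0.08 in PTH sums, and Mgp, an inhibitor of calcification, by 1.02 ± 0.13 in alendronate sums (edgeR adjusted p = 9.42e-09, 8.47e-08 and 3.01e-07).

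Of 13 venous and sinusoidal genes 4 were called higher and 1 lower in juvenile, 3 and 6 in aged, 2 and 4 in PTH and 1 and 7 in alendronate sums. These counts and those of the lists below stand beside the same shares of all genes as above, 58.7% in aged sums. Stab2 fell by 3.13 ± 0.17 in aged sums, from 130 to 15.8 CPM, and by 0.82 ± 0.13 in alendronate sums, and Aplnr rose by 1.5 ± 0.14 in juvenile sums (edgeR adjusted p = 1.27e-18, 1.29e-05 and 2.15e-10). Of 8 immediate early and stress genes, 0 were called higher and 7 lower in juvenile, 1 and 5 in aged, 1 and 0 in PTH and 6 and 0 in alendronate sums. Fos fell by 3.05 ± 0.11 in aged and 1.03 ± 0.12 in juvenile sums, and Jun rose by 0.76 ± 0.07 in alendronate sums (edgeR adjusted p = 1.11e-23, 6.39e-09 and 2.07e-10). These genes respond to dissociation of tissue, and their part in the members' changes was not tested. Of 3 tested relatives of the other members, 1 was called higher and 0 lower in juvenile, 1 and 2 in aged, 0 and 1 in PTH and 0 and 1 in alendronate sums. Egfl7 fell by 0.11 ± 0.05 in aged and 0.22 ± 0.05 in PTH sums (edgeR adjusted p = 0.0362 and 0.00143). Stmn1 rose by 0.4 ± 0.13 in juvenile sums and fell by 0.91 ± 0.12 in aged and 0.62 ± 0.11 in alendronate sums (edgeR adjusted p = 0.0265, 1.49e-08 and 0.000164).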

How the data were processed

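Sorted bone ECs were sequenced as 10 10x Genomics 3′ libraries, 2 for each of 5 groups. The deposited tables hold UMI counts per gene and cell, which the authors made with UMI-tools 1.1.2, STAR 2.7.10a and featureCounts 2.0.3 of Subread on mm10, per the paper's methods and the submitters' processing notes. The strand setting is not given in the sources used here. No column of the tables was left out (0), and 276 names beginning with U, found in the aged tables alone, were removed.

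Cells with 500 to 6000 genes and under 25% mitochondrial UMIs were kept (46283 of 47466), as were genes with a UMI in at least 3 cells, and clustered in Seurat 5.3.0 by anchor integration (2000 variable features without the members, 30 principal components, resolution 0.5). Scrublet called 74 of 46283 cells (0.16%) doublets and so had not worked here. An alternative removed the 1954 cells of highest score, 0.8% per 1000 cells. Counts were summed per class and library (at least 20 cells, 10 libraries) and fitted with edgeR 4.0.16 (glmQLFit, TMM, Benjamini-Hochberg adjustment over all genes tested, called at 0.05) in R 4.3.3. DESeq2 1.42.0 was an alternative. Python 3.11.15 with numpy 2.4.6, scipy 1.17.1, pandas 2.3.3 and matplotlib 3.10.9 was used for levels, co-detection and plots, and the fits were tested on simulated data. Fitted changes over 2 libraries measure the spread between libraries, which may be technical. Replicate pairs of aEC-like sums differed by more than the sampling of UMIs, with a chi-square per degree of freedom of 1.265 to 1.721. That measure takes no account of which cells were drawn, so that it does not show variation beyond sampling of cells.

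The members, lists and tests were chosen with earlier results of these data known. Genes named were the 7 members in every class and group, of each list the called genes of largest change (at most 3, mean of at least 20 CPM), and the 3 genes most like each member over the sums (mean of at least 20 CPM). Of those, the text gives a choice. Gjc1 and Panx1 were named after their values were seen. Same-numbered libraries did not deviate together (r from -0.032 to 0.049), so that the numbers were not taken as pairs. The 2 pairs of a comparison give the same r, since deviations from a mean of 2 libraries mirror each other.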

Additional observations from a re-analysis of the deposited data

Results flagged for a closer look

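The changes of several members differed between classes by the test of the difference, with 2 libraries a group in each class and edgeR adjusted p over all genes. Signed values here are the change in mpEC-like or rEC-like cells minus that in aEC-like cells, on the log2 scale. In juvenile mice Gja4 differed by -1.92 between mpEC-like and aEC-like cells (adjusted p = 1.79e-23), being lower in mpEC-like and higher in aEC-like cells than in adult mice, and Gja1 by -0.48 (0.00405). In aged mice Gja4 differed by 0.30 (0.0254), Gja1 by 0.55 (0.000343), Gkn3 by -4.65 (0.0397), where the aged mpEC-like sums held 0 UMIs and the size is not a bound, and Stmn2 by -1.03 (0.0376). The aged Gja1 difference uses the clusters as drawn. Its aEC-like change was 0.22 without integration and -0.08 in cells picked by Fbln5 and Sema3g. Its mpEC-like change was 0.13 and not called without the filter on low counts. With PTH, Gkn3 differed by 1.44 (0.0172), Stmn2 by 1.05 (0.000161), and with alendronate Gja1 by 0.43 (0.0233) and Stmn2 by 1.32 (2.58e-06). The mpEC-like level of Gkn3, 2.19 CPM on average against 3.37 CPM in haematopoietic-like cells, is read as background, so that its differences are no measure of mpEC-like expression.

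Between rEC-like and aEC-like cells, Gja1 differed by -0.51 in aged mice (edgeR adjusted p = 0.0459) and by -1.65 with PTH (1.28e-15), being lower in rEC-like and higher in aEC-like cells after PTH. Gja4 differed by 1.11 with PTH (0.00596) and by 1.07 with alendronate (0.00229), higher in both classes, and these differences use the clusters as drawn, since the rEC-like change of Gja4 was 0.70 with PTH without integration and 0.75 with alendronate at resolution 0.8, neither called. After PTH, Gja4 and Stmn2 were also higher in bmEC-like and haematopoietic-like cells of the same libraries, as was Stmn2 after alendronate, and the part of that background was not tested.

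Bmx had a signal outside ECs. In haematopoietic-like cells of the aged libraries it was at 58.7 and 45.3 CPM, against 0 to 4.05 in the other 8 libraries. It lay in cells led by S100a9, S100a8 and Camp, neutrophil genes, with 132 UMIs in 61 of 105 aged cells, and less in cells led by Elane, Mpo and Prtn3, with 23 UMIs in 11 of 86. The S100a9-led cells numbered 105 in aged, 1 in PTH, 6 in alendronate and 0 in juvenile and adult libraries, so that the haematopoietic-like class did not hold the same cells in every group. In the Elane-led cells Bmx was at 17 CPM in aged and 3.58 CPM in adult libraries, with 8 UMIs in 264 adult cells.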

How the results depend on the processing

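Of 942 alternatives to the 42 called member changes, 842 kept direction and call, 87 kept direction and lost the call and 13 turned, and 12 changes kept both under every alternative that gave a value, those added after seeing the data aside: Gja1, Gja4 and Gkn3 in juvenile, Gja4 and Egfl8 in aged, Gja4 and Stmn2 in PTH and Gja5 and Stmn2 in alendronate aEC-like sums, Egfl8 and Gkn3 (at the background level) in aged mpEC-like sums and Gja1 in aged rEC-like sums. In the same order of groups, leaving out 1 library gave 4 to 6, 5 to 7, 3 to 4 and 3 to 5 members called in aEC-like sums, 3 to 4, 4 to 6, 3 and 2 to 4 in mpEC-like sums and 0 to 1, 1 to 2, 2 to 3 and 1 to 4 in rEC-like sums, and 988 to 1866, 5611 to 6860, 496 to 880 and 460 to 980 genes called in aEC-like sums. The share of all genes called was then 8.14 to 16%, 46.1 to 58%, 4.08 to 7.44% and 3.78 to 8.35% in aEC-like sums. It was 18.8 to 26.7%, 53.7 to 61.1%, 8.69 to 16.1% and 5.66 to 11.2% in mpEC-like sums and 1.27 to 3.89%, 27.9 to 46.8%, 1.62 to 3.88% and 1.22 to 3.51% in rEC-like sums. Where an arm kept 1 library, it was taken to vary like the others. Each library left out was counted in every comparison, also where it was in neither arm and could move the change little. The 842 of 942 is therefore no rate of robustness. The replicate block gave 6, 7, 4 and 4 members in aEC-like sums (1675, 6657, 892 and 863 genes), 4, 6, 3 and 3 in mpEC-like sums (26.7%, 62.6%, 15.9% and 10.9% of genes) and 0, 1, 2 and 3 in rEC-like sums (2.99%, 45.6%, 3.43% and 2.73%). DESeq2 called 3 members in aged aEC-like sums (43.4% of genes), 1 in alendronate mpEC-like (4.38%, with no adjusted p for Gja5 and Stmn2) and 1 in alendronate rEC-like sums (1.06%), and 937, 344 and 334 genes in juvenile, PTH and alendronate aEC-like sums, and no filter on low counts called 888, 377 and 301. Without integration there were 3 members in juvenile aEC-like (11.1% of genes), 4 in aged and 1 in PTH rEC-like sums (47.8% and 2.76%), and aged mpEC-like sums (5 and 3 cells) were not run. At resolution 0.3 there were 5 in juvenile mpEC-like (18.6%) and 2 in aged rEC-like sums (46%), and at 0.8, 3 in aged and 1 in alendronate rEC-like sums (45.8% and 2.06%). Marker gates gave 0 in each comparison of the Apln gate, a mixture run in place of mpEC-like cells, and 2, 0 and 1 in aged, PTH and alendronate sums of the Timp4 and Aqp7 gate (28.2%, 0.725% and 1.2%), where PTH and juvenile kept 1 library each. Of alternatives chosen after seeing the data, aEC-like cluster 11 alone gave 2, 2 and 1 members in juvenile, PTH and alendronate sums and 320, 3615, 160 and 150 genes in the 4 comparisons, cluster 1 alone 4 members in aged sums (54.9%), mpEC-like cluster 2 alone 3 in aged (56.8%) and cluster 3 alone 1 in alendronate sums (8.97%).

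Log2 fold changes that turned were, without integration, Stmn2 in juvenile (0.045), Gja1 (0.216) and Bmx (-0.749) in aged aEC-like sums, and Gja4 in alendronate mpEC-like sums (-0.142), and Stmn2 in juvenile mpEC-like sums (1.337), whose main value of -0.28 was not called. By marker gates they were Gja4 in juvenile (0.854), Gja1 (-0.290) and Stmn2 (1.115) in aged and Stmn2 in PTH (-0.357) sums of the Apln gate, and Gja5 in alendronate sums of the Timp4 and Aqp7 gate (-0.097). They were Gja5 (0.084) and Stmn2 (0.092) in juvenile cluster 11, Gkn3 in PTH cluster 1 (0.576) and Gja4 in alendronate cluster 3 (-0.548). The cause was not tested, and clusters and gates alone hold fewer cells. Without integration the aged aEC-like class took in more cells, as given with Bmx. The rEC-like juvenile sums held 80 cells.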

Other observations

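A cluster of 54 mural-like cells, with Acta2 at 8733, Rgs5 at 7960 and Myh11 at 1201 CPM over all libraries, also held members. Gja4 was at 874 CPM, with UMIs in 47 of 54 cells, and Stmn2 at 316 CPM, with UMIs in 33 cells. Egfl8 was at 56.2, Gja5 at 52.7 and Gja1 at 17.6 CPM in these cells. The EC genes Pecam1 and Cdh5 were at 460 and 376 CPM and the arterial markers Fbln5 and Sema3g at 622 and 235 CPM. The cells are too few for a comparison of groups, and whether they are single cells was not tested.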
